A study of Sus scrofa with 12 samples.

Results

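SERPINH1, P4HA1, CREB3L1, XBP1, SERP1 and ARCN1 are 6 genes of collagen folding and of the secretory pathway, and all 6 were higher on average in pig hearts under left ventricular pressure overload (LVPO) than in referent controls. They were chosen by name, with their values known, from the 516 genes of the authors' deposited table, of which 141 were higher and 375 lower in LVPO. Polyadenylated RNA of bulk heart tissue was sequenced in 6 LVPO libraries and 6 control libraries. LVPO had been produced by stepwise tightening of a cuff around the ascending aorta of pigs and was studied at 5 weeks, and the controls were pigs matched in age and weight. The series text gives 9 LVPO pigs and 6 control pigs, and the labels give neither the age nor the heart chamber, nor whether 1 pig gave 1 library. Each library has its own title, but no source states that a title names a pig. If some pigs gave more than 1 library, p-values between libraries would reflect technical spread in part.

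Collagen chains are made on ribosomes at the endoplasmic reticulum, pass through the translocon into its lumen, are hydroxylated on prolines, fold into a triple helix with the help of a dedicated chaperone, and leave in COPII carriers for the Golgi. COPI coats carry escaped proteins and receptors back from the Golgi. When unfolded proteins build up, membrane-bound sensors switch on transcription factors that enlarge this machinery. In the heart, fibroblasts are the main makers of fibrillar collagen, and pressure overload is known for interstitial collagen deposition.

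Values are CPM, read counts scaled by the authors to the size of each library, so levels can be compared between libraries for 1 gene but not between genes of different length. The steps between low CPM values gave a library size of 24.3 to 31.9 M in LVPO and 19.5 to 30.2 M in controls. Most whole values were even at these sizes, and 15.2% to 21.0% of them were odd, so the number of fragments may be as low as 12.2 to 15.9 M in LVPO and 9.77 to 15.1 M in controls. The lowest value among the 6 genes, that of CREB3L1 in control replicate 5, stood on 222 steps, or 111 by the smaller size. In bulk tissue, more cells of a type and more RNA per cell cannot be told apart. The label of heart tissue could not be checked, because none of 12 cardiomyocyte markers is among the 516 listed genes and the values of other genes were not analysed here.

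The authors' deposited table lists genes with an unadjusted p under 0.05 for LVPO against control, and this contrast fixed both the choice and the direction of the 6 genes. Of the 15235 genes that the ratio of adjusted to unadjusted p implies were tested, 3.39% are listed and 0.926% are listed as higher, and all 6 genes are among those listed as higher by choice. The authors' deposited table gives an unadjusted p of 0.0149 for ARCN1, 0.0223 for SERP1, 0.0223 for XBP1, 0.0321 for CREB3L1, 0.0322 for P4HA1 and 0.0452 for SERPINH1. After adjustment, each of the 6 stood at 1 in the authors' deposited table, where 0.0394% of tested genes had an adjusted p under 0.05. SERPINH1 thus lay nearest to the threshold, just inside which stood HYOU1 at 0.0495 and PSMD14 at 0.0499 in the authors' deposited table. Genes outside the threshold were not analysed here. The differences between groups below are descriptions of this choice and carry no test.

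SERPINH1 encodes HSP47, the chaperone of the endoplasmic reticulum that binds folded procollagen. In LVPO replicates 1 to 6 it was at 262, 239, 335, 340, 274 and 230 CPM. In control replicates 1 to 6 it was at 225, 268, 247, 229, 222 and 186 CPM. Replicates 3 and 4 stood above the rest of the LVPO libraries, 3 LVPO libraries lay above the highest control, and the groups overlapped. The mean was 280 ± 47.4 CPM in LVPO and 229.7 ± 27.6 CPM in controls (SD, n = 6 each), a log2 difference of 0.28 ± 0.13 (SE). By the RefSeq annotation of Sscrofa11.1, SERPINH1 spans 9782939 to 9794485 on chromosome 9 and is overlapped by a long noncoding RNA gene. No source states whether counting used strand, so reads of the pair cannot be told apart.

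P4HA1 encodes a catalytic alpha subunit of the collagen prolyl hydroxylase, whose product stabilises the triple helix. It was at 62.8, 69.7, 75.0, 86.0, 60.6 and 59.0 CPM in LVPO replicates 1 to 6. It was at 47.7, 68.4, 49.5, 64.0, 35.5 and 57.1 CPM in control replicates 1 to 6. Replicate 4 was the highest LVPO library, as for SERPINH1, and replicate 5 was the lowest control. The groups overlapped, with 3 LVPO libraries above the highest control. The mean was 68.9 ± 10.3 CPM in LVPO and 53.7 ± 11.97 CPM in controls (SD, n = 6 each), a log2 difference of 0.37 ± 0.15 (SE). P4HA1 spans 75827207 to 75919121 on chromosome 14 and overlaps the protein-coding gene NUDT13, which makes its level uncertain.

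CREB3L1 encodes a transcription factor held in the membrane of the endoplasmic reticulum until it is cleaved, which in mouse bone activates the genes of type I collagen. LVPO replicates 1 to 6 had 21.8, 17.8, 20.6, 18.6, 14.1 and 18.2 CPM. Control replicates 1 to 6 had 17.8, 12.1, 15.7, 14.1, 7.90 and 9.27 CPM. Control replicate 1 stood at the level of LVPO replicate 2, just below it, and the lowest LVPO library, replicate 5, was within the range of the controls, so the groups overlapped. The mean was 18.5 ± 2.65 CPM in LVPO and 12.8 ± 3.79 CPM in controls (SD, n = 6 each). Its log2 difference of 0.54 ± 0.19 (SE) was the largest of the 6, and the SD was 14.3% of the mean in LVPO and 29.6% in controls, and the control value was the widest of the 6 genes in that group. CREB3L1 lies on chromosome 2 from 16186206 to 16220948.

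XBP1 encodes a transcription factor of the unfolded protein response whose messenger RNA is spliced by the sensor ERN1 into the active form. The gene-level values here do not separate the spliced from the unspliced form. XBP1 was at 109.6, 96.8, 136, 134.1, 117 and 98.1 CPM in LVPO replicates 1 to 6, and at 101.0, 88.0, 100.4, 102, 79.6 and 88.7 CPM in control replicates 1 to 6. Replicates 3 and 4 were again the highest LVPO libraries, while replicates 2 and 6 lay below the highest control. The mean was 115 ± 17.1 CPM in LVPO and 93.2 ± 9.14 CPM in controls (SD, n = 6 each), a log2 difference of 0.30 ± 0.12 (SE). XBP1 lies on chromosome 14 from 46011239 to 46016526.

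SERP1 encodes a small membrane protein that sits at the translocon and is associated with the stability of membrane proteins under stress. LVPO replicates 1 to 6 had 19.0, 17.3, 19.2, 19.4, 17.6 and 13.97 CPM. Control replicates 1 to 6 had 13.5, 13.4, 12.9, 13.98, 10.5 and 11.2 CPM. LVPO replicate 6 stood just under the highest control, and the other 5 LVPO libraries lay above every control. The mean was 17.7 ± 2.05 CPM in LVPO and 12.6 ± 1.39 CPM in controls (SD, n = 6 each), a log2 difference of 0.46 ± 0.14 (SE). SERP1 lies on chromosome 13 from 90756845 to 90761400.

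ARCN1 encodes the delta subunit of the COPI coat. It was at 114.8, 112.6, 107, 121, 116 and 116 CPM in LVPO replicates 1 to 6. It was at 96.6, 106, 97.3, 98.4, 77.3 and 88.4 CPM in control replicates 1 to 6. ARCN1 was the only one of the 6 genes whose groups did not overlap, which held for 7.8% of the 141 listed genes that were higher and for 9.69% of all 516 listed genes. The mean was 114 ± 4.50 CPM in LVPO and 93.9 ± 9.81 CPM in controls (SD, n = 6 each), a log2 difference of 0.29 ± 0.10 (SE). The SD was 3.93% of the mean in LVPO and 10.5% in controls, and the LVPO value was the lowest of the 6 genes in either group. ARCN1 lies on chromosome 9 from 45863772 to 45897525.

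**Figure D1:**
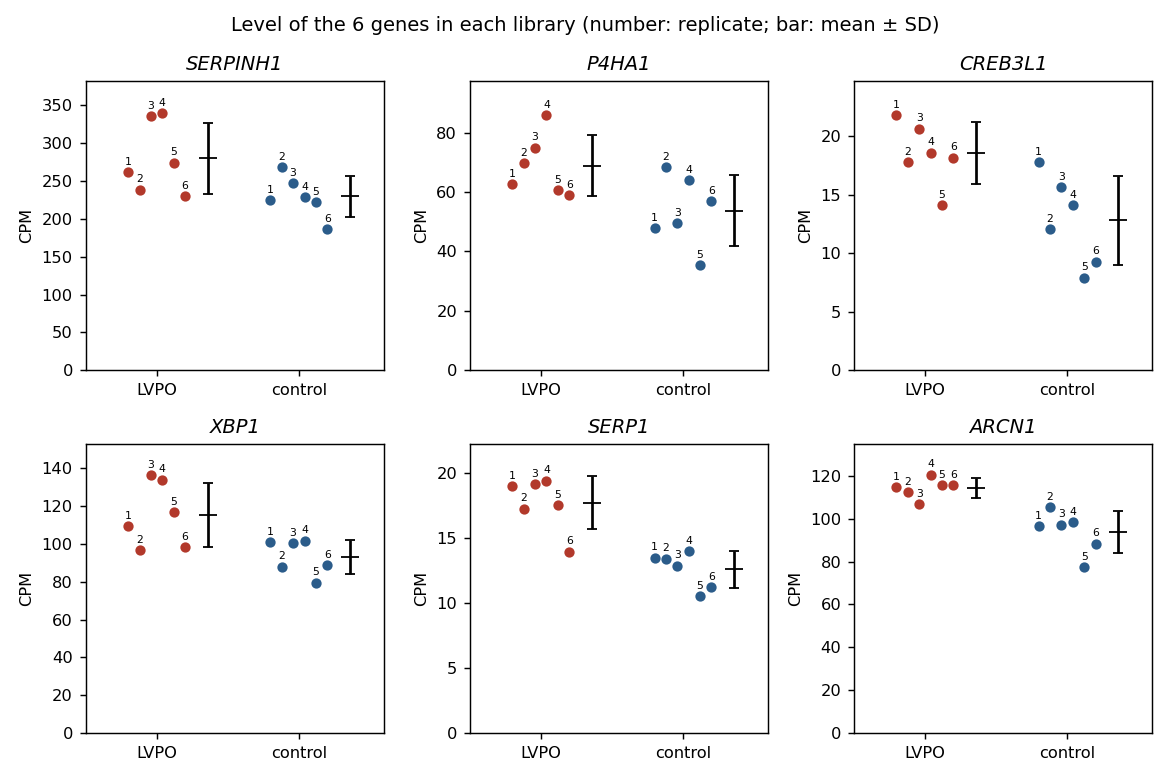
Level of each of the 6 genes in CPM (vertical axes, starting at 0), with 1 point per library numbered by replicate and the mean ± SD beside each group of 6. LVPO means lie above control means in all 6 panels, and only for ARCN1 do the groups not overlap.

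The 6 log2 differences ranged from 0.28 to 0.54, with a median of 0.33. The median was -0.41 over the 512 genes fitted and 0.42 over the 138 of them that were higher. By the size of the fold change in the authors' deposited table, CREB3L1 ranked 51 and SERP1 61 among the 141 higher genes, P4HA1 ranked 93, and XBP1, SERPINH1 and ARCN1 ranked 119, 126 and 127. CREB3L1 and SERP1 thus lay in the upper part of that order and the other 4 genes in the lower part. All 6 LVPO libraries lay above the control median for each of the 6 genes, which their choice on this contrast favours. Among the other higher genes of the pathway, hypoxia and marker lists described below, it also held for TRIB3, PREB, MIA3, HIF1A and KDR. For HYOU1 and COPB2 it held in 5 libraries each, and for TNC and COMP in 4 each. The share over the 141 higher genes was not counted, so the count is not read as a result about the 6 genes.

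The libraries carry identifiers S01 to S06, which are replicates 1 to 3 of each group, and S10 to S15, which are replicates 4 to 6. What this numbering stands for is not given. Each of the 6 genes was higher in LVPO within both ranges, which their choice over all 12 libraries favours, so this is not a replication. The log2 differences, with S01 to S06 first, were 0.16 ± 0.15 and 0.39 ± 0.19 for SERPINH1, 0.34 ± 0.16 and 0.41 ± 0.25 for P4HA1, 0.39 ± 0.19 and 0.68 ± 0.27 for CREB3L1, 0.23 ± 0.15 and 0.36 ± 0.17 for XBP1, 0.45 ± 0.15 and 0.48 ± 0.24 for SERP1, and 0.16 ± 0.11 and 0.42 ± 0.15 for ARCN1 (SE, n = 3 against 3). For SERPINH1, CREB3L1, XBP1 and ARCN1 the 2 estimates differed by more than 1.5 times, and that difference was not tested. With each library left out in turn, the log2 difference stayed between 0.22 and 0.33 for SERPINH1, 0.26 and 0.45 for P4HA1, 0.42 and 0.63 for CREB3L1, 0.25 and 0.34 for XBP1, 0.42 and 0.53 for SERP1, and 0.23 and 0.32 for ARCN1.

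**Figure D2:**
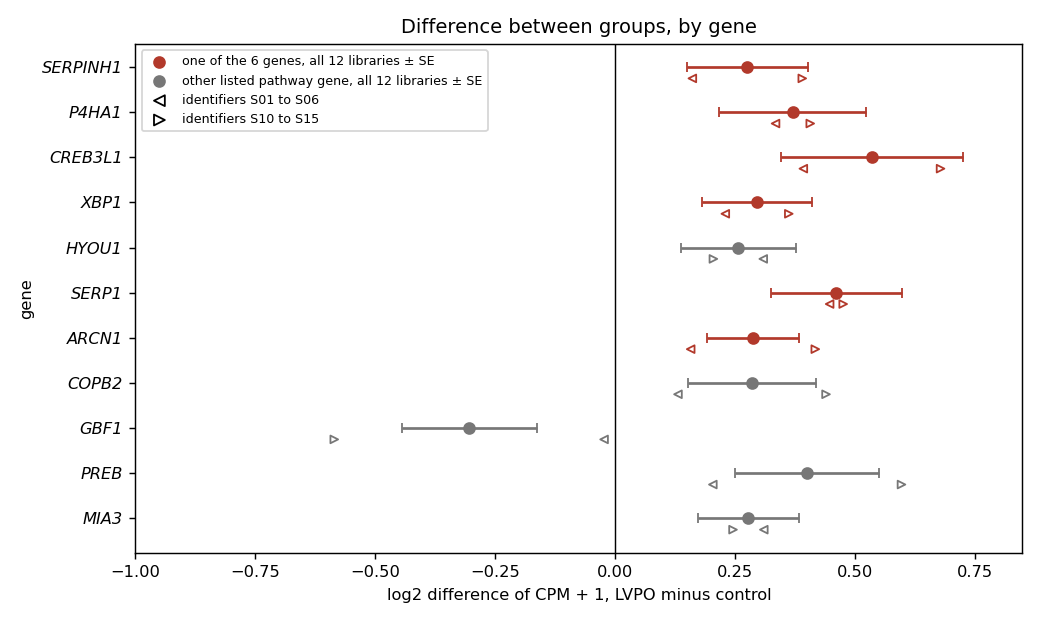
Log2 difference of CPM + 1, LVPO minus control, on the horizontal axis, for the 6 genes and for 5 other listed genes of the same pathways, with points and bars for all 12 libraries ± SE and open triangles for each range of library identifiers. The 6 genes lie between 0.28 and 0.54, and GBF1 alone lies below 0, at -0.30.

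Whether the 6 genes were high in the same libraries was asked within each group, where the difference between groups on which they were chosen does not enter. In LVPO, replicate 4 had the highest level of SERPINH1, P4HA1, SERP1 and ARCN1, and stood above the group mean for all 6 genes on the log2 scale. Replicate 3 was among the highest 2 LVPO libraries for 5 of the 6 genes but was the lowest for ARCN1. Replicate 6 was the lowest LVPO library for SERPINH1, P4HA1 and SERP1. Among controls, replicate 5 was the lowest for 5 of the 6 genes and second lowest for SERPINH1, at -0.55 from the group mean for P4HA1 and -0.58 for CREB3L1 on the log2(CPM + 1) scale. Control replicate 4 stood above the group mean for all 6 genes.

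**Figure D3:**
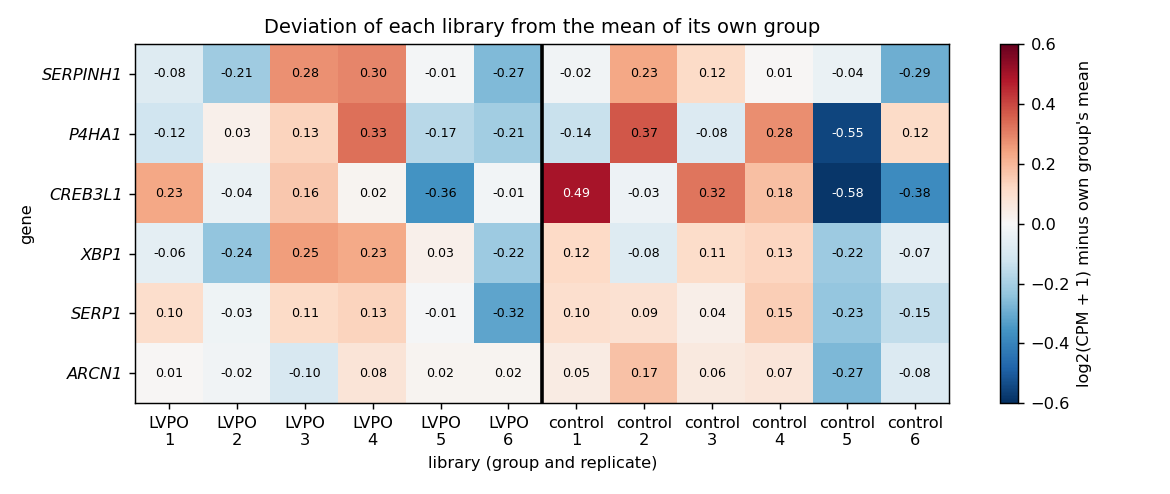
Deviation of each library (columns) from the mean of its own group for each gene (rows), as log2(CPM + 1), with red above and blue below the group mean. LVPO replicate 4 and control replicate 4 are above their group's mean in every row, and control replicate 5 is below it in every row, down to -0.58 for CREB3L1.

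Correlations were computed for the 15 pairs of genes in each group and tested with an exact two-sided permutation test, with p-values adjusted over the 30 tests by the Benjamini-Hochberg method. In LVPO, 11 of the 15 pairs had a positive Pearson r, with a median of 0.29. In controls, 15 of the 15 were positive, with a median of 0.66. Over all 132870 pairs of listed genes the median was 0.19 in LVPO and 0.07 in controls, and 59.7% of pairs in LVPO and 54.3% in controls were positive. Over the 9870 pairs of listed higher genes the median was 0.03 in LVPO and 0.20 in controls, and 51.6% in LVPO and 64.5% in controls were positive. The 15 pairs share genes and libraries and are not independent. No pair passed the adjusted threshold in either group. By the exact permutation test, 1 LVPO pair and 5 control pairs had an unadjusted p under 0.05 for Pearson r, and 2 LVPO pairs and 1 control pair for Spearman rho. The share of all listed pairs with such a p was not counted, so these counts are not read as a trait of the 15 pairs. The smallest p that an exact permutation of 6 libraries can give is 0.00139 for Pearson r and 0.00278 for Spearman rho. A lone pair at the latter would have an adjusted p of 0.0833 over the 30 permutation tests, so it could not pass.

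The pair with the highest r in LVPO was SERPINH1 and XBP1. Their Pearson r was 0.99 and their Spearman rho 0.89 in LVPO (exact permutation p = 0.00556 and 0.0333, adjusted p = 0.153 and 0.25, n = 6). Without the 2 libraries farthest from the median of SERPINH1, r was 0.97. In controls the same pair had an r of 0.17 and a rho of 0.14 (exact permutation p = 0.769 and 0.803, adjusted p = 0.87 and 0.926, n = 6), and r was 0.50 without the 2 farthest libraries. The difference between the groups was not tested.

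In controls the pair with the highest r was CREB3L1 and XBP1, both transcription factors of secretory stress. Their r was 0.15 in LVPO and 0.92 in controls, and their rho was 0.37 in LVPO and 0.77 in controls. The exact permutation p of r was 0.779 in LVPO (adjusted p = 0.87) and 0.0139 in controls (adjusted p = 0.153). That of rho, from the same exact test, was 0.497 in LVPO (adjusted p = 0.71) and 0.103 in controls (adjusted p = 0.343). Without the 2 farthest libraries, r was 0.78 in LVPO and 0.79 in controls. SERP1 and ARCN1 had an r of -0.11 in LVPO and 0.91 in controls, and a rho of 0.03 in LVPO and 0.71 in controls. The exact permutation p of r for that pair was 0.783 in LVPO (adjusted p = 0.87) and 0.0153 in controls (adjusted p = 0.153). Its rho had an exact p of 1 in LVPO (adjusted p = 1) and 0.136 in controls (adjusted p = 0.371). Without the 2 farthest libraries, r of SERP1 and ARCN1 was -0.48 in LVPO and 0.07 in controls, so the control relation did not hold over the 4 libraries left, a narrower range. With any 1 control library left out, it was 0.79 to 0.93.

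**Figure D4:**
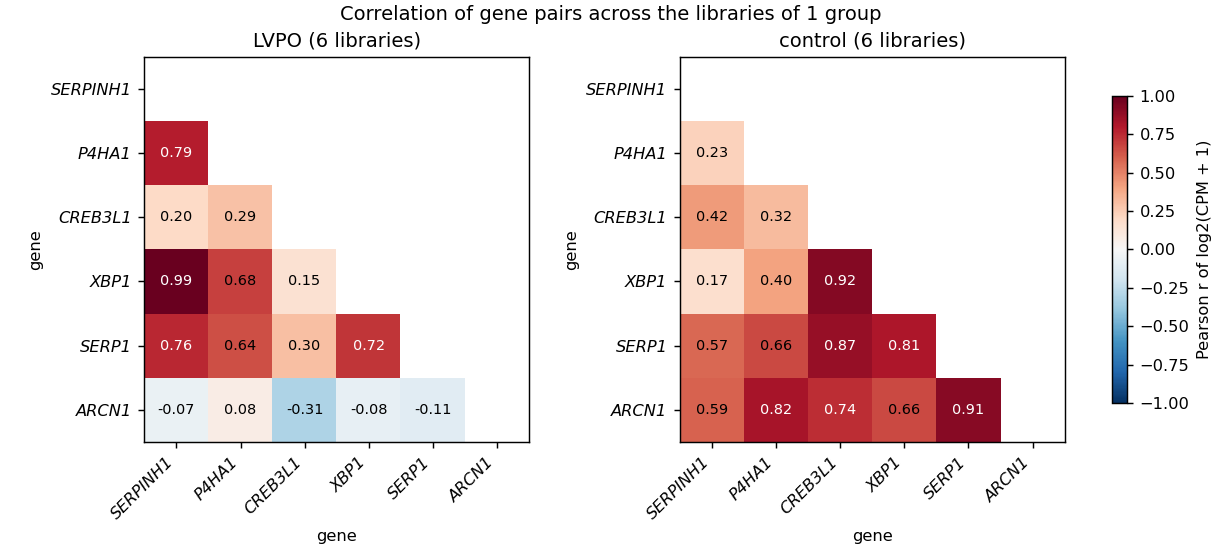
Pearson r of log2(CPM + 1) for the 15 pairs of genes across the 6 LVPO libraries (left) and the 6 control libraries (right), with red positive and blue negative. In LVPO, SERPINH1, P4HA1, XBP1 and SERP1 have r from 0.64 to 0.99 with each other and ARCN1 lies near 0 or below, while all 15 control values are positive. The grouping of genes in LVPO was made after the values were seen.

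Within LVPO, SERPINH1, P4HA1, XBP1 and SERP1 had positive r in all of their pairs with each other, from 0.64 to 0.99, none of which passed. These genes were grouped after the r values were seen. Without the 2 libraries farthest from the median of the first-named gene, r was -0.17 for SERPINH1 and P4HA1 and -0.41 for P4HA1 and XBP1. It was 0.44 for P4HA1 and SERP1, 0.57 for XBP1 and SERP1, 0.75 for SERPINH1 and SERP1, and 0.97 for SERPINH1 and XBP1. ARCN1 had r between -0.31 and 0.08 with the other 5 genes in LVPO, where its own spread was small. In controls, ARCN1 had r between 0.59 and 0.91 with the other 5, and SERP1 between 0.57 and 0.91. Leaving out 1 library moved these medians. Without LVPO replicate 3, the library that was lowest for ARCN1, the median r in LVPO was 0.63 in place of 0.29. Without control replicate 5, the median r in controls was 0.43 in place of 0.66.

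With both groups in 1 fit and each gene centred on its group's mean, all 15 pairs were positive, from 0.30 to 0.75 with a median of 0.55. This fit was added after the data were seen. The median over all pairs of listed genes was 0.10, and over pairs of listed higher genes 0.12. Of these pairs, 57.6% of all listed and 61.4% of listed higher were positive. XBP1 and SERP1 had the highest r, 0.75, and 0.83 on ranks within groups (exact permutation of libraries within groups, p = 0.00588 and 0.00385; adjusted over 15 pairs, p = 0.0883 and 0.0577; n = 12). Without the 2 libraries farthest from the median of XBP1, their r was 0.71. By this exact permutation test 5 pairs had an unadjusted p under 0.05, by Pearson r and likewise on ranks, and 0 passed after adjustment. Here too the share of all listed pairs with such a p was not counted. After median-of-ratios rescaling, which divides all genes of a library by 1 factor, 13 pairs passed. The factor was lowest in LVPO replicate 4, at 0.778, and highest in control replicate 5, at 1.27. Being shared by all genes of a library, it can raise every r, and no rescaled median over all listed pairs was computed. The 13 pairs are thus not taken as support for a joint rise. On the deposited scale, 1 pair passed without LVPO replicate 1, and 2 pairs did without control replicate 2. Without control replicate 5 the median r of the 15 pairs was 0.36.

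**Figure D5:**
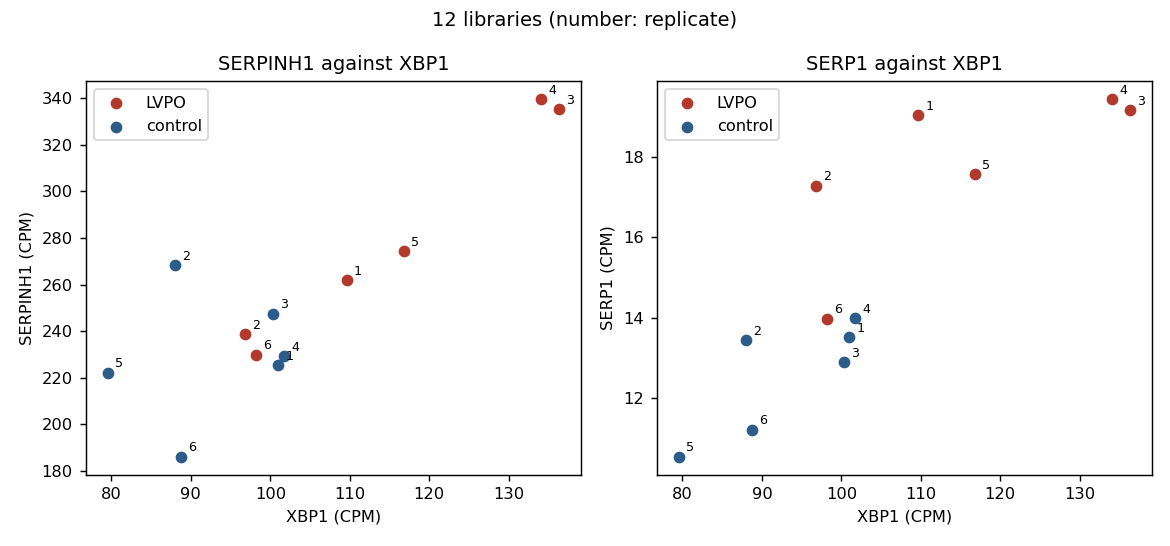
SERPINH1 (left) and SERP1 (right) against XBP1 in CPM, 1 point per library numbered by replicate, LVPO in red and control in blue. LVPO replicates 3 and 4 are highest on all 3 genes within LVPO, and control replicate 5 is lowest on XBP1 and SERP1 within controls.

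Measures of the libraries moved with these levels in places. The median log2(CPM + 1) of the 375 listed lower genes was 5.31 in control replicate 5, the highest of the 12 libraries, where 5 of the 6 genes were at their lowest. Over the 12 libraries centred within groups, that median had an r of -0.81 with ARCN1 and between -0.36 and -0.12 with the other 5 genes. The library size had an r between -0.58, for CREB3L1, and 0.16, for P4HA1. The part of these measures in the results was not tested. The matrix glycoprotein TNC, a marker of activated fibroblasts, was at 64.1 CPM in LVPO replicate 4, against 4.96 to 17.5 CPM in the other LVPO libraries and 3.20 to 8.39 CPM in controls. COMP, another such marker, was at 7.44 CPM in LVPO replicate 4 and at 0 to 0.490 CPM in the other LVPO libraries. Without LVPO replicate 4, the median log2 difference of the 6 genes was 0.29 in place of 0.33.

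For each gene, the 2 other listed genes with the highest r over the 12 libraries, centred within groups, are named as the most alike in pattern. These values are descriptions, taken from the best of 510 genes, and carry no test. For SERPINH1 they were LRP11 at 0.76, of the LDL receptor-related family, and MYADM at 0.75, a membrane protein. For P4HA1 they were PDYN, the precursor of dynorphins, at 0.87, and NPNT, the integrin ligand nephronectin, at 0.79. By group, the r of NPNT was 0.27 in LVPO and 0.95 in controls, and that of PDYN 0.81 in LVPO and 0.89 in controls. LAD1, a basement membrane filament protein, came first for both CREB3L1, at 0.75, and XBP1, at 0.81. By group, its r with CREB3L1 was 0.41 in LVPO and 0.95 in controls, and with XBP1 0.83 in LVPO and 0.86 in controls. The second was SEL1L3 for CREB3L1, at 0.74, and ZNF281, a zinc finger protein, for XBP1, at 0.79. ZNF281 was also first for SERP1, at 0.79, followed by RBPJ, the DNA-binding factor of Notch signalling, at 0.75. For ARCN1 they were CLTC, the clathrin heavy chain, at 0.95, and SMARCA5, a chromatin remodeller, at 0.93.

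Some of these most alike genes were lower in LVPO. PDYN was at 10.3 ± 4.07 CPM in LVPO and 22.5 ± 14.5 CPM in controls, and NPNT at 12.8 ± 4.73 CPM in LVPO and 38.6 ± 24.3 CPM in controls (SD, n = 6 each), although P4HA1 was higher in LVPO. LAD1 and RBPJ were likewise lower in LVPO, with log2 differences of -0.78 ± 0.24 and -0.36 ± 0.13 (SE). CLTC, a coat protein of another vesicle class, was higher like ARCN1, at 158 ± 8.75 CPM in LVPO and 124 ± 25.9 CPM in controls. Its r with ARCN1 was 0.54 in LVPO and 0.99 in controls.

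The other genes of these pathways were taken from lists. In 7 lists of collagen chains, collagen folding, stress sensors, chaperones, translocon, COPI and COPII, which hold 194 genes beside the 6, the authors' deposited table lists 5 as higher and 1 as lower in LVPO, where 0.926% of all tested genes are listed as higher and 2.46% as lower. None of these 6 had an adjusted p under 0.05 in the authors' deposited table. How many of the 194 genes were tested is not known, so list counts and tested shares rest on unlike totals. By list, the genes listed as higher, the 6 included, were 0 of 24 collagen chains, 2 of 30 genes of collagen folding and modification, 3 of 21 stress sensors and related factors, 1 of 38 chaperones and degradation factors, 1 of 34 translocon genes, 2 of 25 COPI genes and 2 of 28 COPII and procollagen export genes. The collagen chains themselves are thus not among the listed genes, and a gene that is not listed is not shown to be equal in the groups.

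Of the listed genes of export, MIA3, the receptor known as TANGO1 that loads procollagen into COPII carriers, was at 83.2 ± 8.24 CPM in LVPO and 68.5 ± 7.65 CPM in controls (SD, n = 6 each). PREB, the exchange factor that starts COPII coat assembly, was at 37.95 ± 9.42 CPM in LVPO and 28.0 ± 3.23 CPM in controls, with a log2 difference of 0.20 ± 0.15 in S01 to S06 and 0.60 ± 0.23 in S10 to S15 (SE). Over the 12 centred libraries, as a description with no p, the r of PREB was between -0.61, with SERP1, and 0.02, with ARCN1. PREB overlaps ABHD1, so its level is uncertain.

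In the COPI list, COPB2, a coat subunit like ARCN1, was at 85.5 ± 10.1 CPM in LVPO and 70.5 ± 12.5 CPM in controls, and it overlaps MRPS22. Its log2 difference was 0.13 ± 0.16 in S01 to S06 and 0.44 ± 0.20 in S10 to S15 (SE). GBF1, the exchange factor that recruits ARF proteins and with them the COPI coat, was the 1 listed gene of the 7 lists that was lower, at 73.3 ± 13.8 CPM in LVPO and 90.4 ± 14.2 CPM in controls (SD, n = 6 each). Its log2 difference was -0.02 ± 0.16 in S01 to S06 and -0.59 ± 0.18 in S10 to S15 (SE). GBF1 overlaps a long noncoding RNA gene. For ARCN1, COPB2 and GBF1 alike, the difference was larger in S10 to S15. This was not particular to COPI genes, as it held for all 6 genes and for PREB, HIF1A, HIF3A and TNC. For HYOU1, MIA3 and KDR the difference was smaller in S10 to S15.

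Among stress genes, HYOU1, a chaperone of the endoplasmic reticulum, was at 50.7 ± 6.90 CPM in LVPO and 42.1 ± 4.52 CPM in controls. TRIB3, a pseudokinase induced by stress, was at 1.98 ± 1.92 CPM in LVPO and 0.496 ± 0.288 CPM in controls, on 6 to 142 steps a library, or 3 to 71 by the smaller size. In S01 to S06 it was no higher in LVPO, at 0.636 ± 0.103 CPM in LVPO and 0.729 ± 0.209 CPM in controls, and in S10 to S15 it was at 3.33 ± 1.95 CPM in LVPO and 0.263 ± 0.0236 CPM in controls (SD, n = 3 each). Without LVPO replicate 4, its LVPO mean was 1.28 CPM. In a list of 18 hypoxia-response genes, HIF1A was listed as higher and HIF3A as lower. HIF1A, whose protein is a known activator of P4HA1, was at 102 ± 12.6 CPM in LVPO and 82.0 ± 13.005 CPM in controls. Its log2 difference was 0.08 ± 0.11 in S01 to S06 and 0.55 ± 0.20 in S10 to S15 (SE). Over the 12 centred libraries its r was positive with all 6 genes, from 0.42 with SERPINH1 to 0.88 with ARCN1, and was 0.76 with P4HA1, a description with no p. HIF1A overlaps a pseudogene. HIF3A, which overlaps a protein-coding gene, was at 13.3 ± 3.25 CPM in LVPO and 28.4 ± 15.5 CPM in controls, with a log2 difference of -0.50 ± 0.22 in S01 to S06 and -1.38 ± 0.38 in S10 to S15 (SE).

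Markers of cell types that could carry the 6 genes were listed in small numbers. Of 12 markers each, 0 of general fibroblasts, 2 of activated fibroblasts, 1 of endothelium, 0 of smooth muscle and pericytes, 0 of macrophages and 0 of cardiomyocytes were listed. All of those listed were higher in LVPO, where 0.926% of all tested genes are listed as higher. The activated fibroblast markers were TNC and COMP, which stood far above the other LVPO libraries in replicate 4, at 64.1 and 7.44 CPM. The endothelial marker was KDR, the VEGF receptor, at 149.7 ± 35.5 CPM in LVPO and 101.0 ± 27.5 CPM in controls. Of 10 plasma cell markers, only XBP1 was listed. Summed marker levels could not be formed, since the values of unlisted markers were not analysed here, and the part of cell composition in the levels of the 6 genes was not tested.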

How the data were processed

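Per the file headers, the deposited table holds the CPM of 12 libraries and 2 group means. It also holds log2 values (fold change and average CPM), a likelihood-ratio score and p-values with and without adjustment, all made by the authors. The build Sscrofa11.1 and the tools Subread 1.5.3 (featureCounts), SAMtools 1.5, STAR 2.7.2b, Trim Galore 0.4.5 and FastQC are named in the submitters' processing notes. Rescaling before CPM, the annotation, the strand setting and the handling of multi-mapping reads are unstated in these sources. Listed genes reach an unadjusted p of 0.04997 in the authors' deposited table, so they were selected on the outcome.

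Library size was sought between 18 and 36 M as the one that turns CPM into whole steps. At it, 95.8% of values up to 5000 steps were whole within 0.02 on average, and 76.4% to 81.0% of them still were at the smaller size given above. A step may be a read, a mate or a fraction of a fragment, so the recovered numbers were not taken as counts and no count model was fitted. The number of genes tested came from the ratio of adjusted to unadjusted p, and Benjamini-Hochberg values recomputed with it matched the 103 adjusted values under 1 (largest gap 7.42e-14). Differences and standard errors come from limma (version 3.58.1, R 4.3.3, trend option) on log2(CPM + 1). It was fitted to the 512 genes that reached 1 CPM in 6 or more libraries, and this scale understates changes of low genes. The 6 genes passed this filter. Correlations used Python 3.11.15 and exact permutation. Both steps were tested on simulated data. The 6 genes and all lists were chosen with earlier results of these data known. Named genes are the 6, every listed gene of the lists, and the 2 most alike in pattern to each; PSMD14, NUDT13, ABHD1 and MRPS22 were named after values or annotation were seen. Groups follow the group label, and columns were matched to samples by library identifier. Alternatives were other pseudocounts, no filter, median-of-ratios rescaling, ranks, each library left out, and each range of identifiers. The plan to adjust p over all genes was dropped, as the table is partial.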

Additional observations from a re-analysis of the deposited data

Results flagged for a closer look

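None of the 12 groups of values of the 6 genes held a library that stood apart by the gap between the extreme library and its neighbour, relative to the range of the group. Over all 17 genes and 34 groups examined, 7 such libraries were found, where chance flags about 1 group in 20 for independent groups of normal values. Neither condition was checked, so the 7 are not read as an excess. TNC was at 64.1 CPM in LVPO replicate 4, with the next LVPO library at 17.5 CPM. COMP was at 7.44 CPM in the same library, with the next at 0.490 CPM. HIF1A was at 126 CPM there, with the next at 103 CPM, and at 57.5 CPM in control replicate 5, with the next lowest control at 80.8 CPM. These are the 2 libraries in which most of the 6 genes were highest in LVPO and lowest in controls. COPB2 was at 65.9 CPM in LVPO replicate 3, against 85.0 CPM in the next lowest, and that library was also the lowest of its group for ARCN1. HIF3A was at 58.5 CPM in control replicate 6, against 28.0 CPM in the next. COMP was at 0.381 CPM in control replicate 1, against 0.142 CPM in the next, but controls held only 0 to 8 steps of COMP, or 0 to 4 by the smaller size.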

How the results depend on the processing

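All 6 genes were higher in LVPO under every alternative run, which their choice on this contrast largely fixes and which is no support. How many other listed higher genes did the same was not counted. The median log2 difference of the 6, 0.33 as deposited, was 0.66 after median-of-ratios rescaling. The factors came from a table of mostly lower genes, which raised the median of all fitted genes by 0.32, so the shift is built in. Within LVPO and within controls 0 pairs passed under the alternatives run, which says nothing of stability: a lone pair at the smallest p would stay at an adjusted p of 0.0833 on ranks and of 0.25 with a library left out. With both groups centred, 13 of 15 pairs passed and the median r was 0.71 after the same rescaling. Its factor is shared by all genes of a library and can raise every r, so this is not taken as support. On the deposited scale, 1 pair passed without LVPO replicate 1 and 2 without control replicate 2. Leaving out each library gave between 0 and 2 passing pairs and a median r between 0.36 and 0.61, the lowest without control replicate 5; the cause was not tested. At an unadjusted p under 0.01 in the authors' deposited table, 0 of the 11 higher genes of the 7 lists remained, where 16 of the 141 listed higher genes do (0.105% of all tested genes). No paired analysis was possible because the labels give no replicate numbers, and no source states that the numbers in the file headers pair libraries.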
